A study of Mus musculus with 12 samples.

Results

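The Cyp2c genes encode cytochrome P450 enzymes of the liver, and 10 of them were followed here through 12 libraries of primary mouse hepatocytes: Cyp2c29, Cyp2c37, Cyp2c38, Cyp2c39, Cyp2c40, Cyp2c44, Cyp2c50, Cyp2c54, Cyp2c55 and Cyp2c70. They were chosen by gene symbol and not by a cut on a measured value, but with earlier results of these data known. They are 10 of the 22471 features in the deposited tables, in which 16 rows carry a Cyp2c symbol. The libraries form 4 groups of 3: Con (the control), ConOA (oleic acid, OA, given to load the cells with fat), BBR (benzbromarone, a drug that lowers urate by blocking its reuptake in the kidney) and BBROA (both agents). The study asked what BBR does to hepatocytes with and without a lipid load, and the cells were cultured hepatocytes from male C57BL/6J mice, although the labels give the tissue as liver. Whether the replicates came from separate mice is not stated, so the p-values measure the spread between these samples, which may be technical.

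Cytochromes P450 are haem enzymes of the endoplasmic reticulum that insert oxygen into their substrates, with electrons passed on by the reductase Por. Enzymes of the 2C subfamily oxidise drugs, steroids and arachidonic acid, and several mouse members make epoxide or hydroxy derivatives of arachidonic acid. Cyp2c70 is set apart by its substrate: it hydroxylates bile acids and gives rise to the muricholic acids, which are typical of mice and rats. Transcription of the subfamily in hepatocytes is known to depend on HNF4A and on the drug-sensing receptors CAR (Nr1i3) and PXR (Nr1i2).

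In short, with the replicates taken as unpaired, Cyp2c70 was the only member past the threshold, and it was so in every comparison. Its level rose 4.88-fold with OA alone (ConOA vs Con, n = 3 and 3) and 3.72-fold with OA under BBR (BBROA vs BBR), and it fell to 0.817 of the control level with BBR (BBR vs Con) and to 0.622 of the OA level with BBR and OA (BBROA vs ConOA). The other members that could be tested stayed between -0.31 and 0.19 on the log2 scale in all 4 comparisons, and none of them was called. With the replicate number as a block in the fit, Cyp2c29, Cyp2c37 and Cyp2c44 were called as well in some comparisons. That fit also called more of all genes there.

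All 10 members lie on chromosome 19 (GRCm38). Apart from Cyp2c44, the members form a cluster of 9 that spans 1180.3 kb between 39007019 and 40187333, with Cyp2c55 at its start and Cyp2c70 (40153353 to 40187333, minus strand) at its end. Cyp2c44, which the annotation lists as Cyp2c23, lies 3.818 Mb beyond the cluster (44005022 to 44029208, minus strand). Of the 10 genes, 5 are on the plus strand and 5 on the minus strand. The sequences just before the start of transcription are shown for Cyp2c70, which changed, and for Cyp2c29, Cyp2c37 and Cyp2c50, which are expressed in the same cells and were not called. Each is the 150 bases before the first transcribed base in RefSeq (GRCm38.p6), read along the gene. Capitals mark 3 sets of letters, searched on both strands: TATAAA (letters of the core promoter box), AGGTCA (core letters of nuclear receptor sites) and CAAAGTCCA (letters of the HNF4A type).
Cyp2c70 (chr19:40187287-40187436, minus strand): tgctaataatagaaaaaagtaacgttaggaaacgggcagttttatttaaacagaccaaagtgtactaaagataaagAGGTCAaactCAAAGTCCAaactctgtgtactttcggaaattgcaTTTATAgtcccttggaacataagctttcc
Cyp2c29 (chr19:39286935-39287084, plus strand): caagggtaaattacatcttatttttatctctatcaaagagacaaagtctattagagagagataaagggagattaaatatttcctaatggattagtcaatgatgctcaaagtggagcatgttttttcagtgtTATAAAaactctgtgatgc
Cyp2c37 (chr19:39992274-39992423, plus strand): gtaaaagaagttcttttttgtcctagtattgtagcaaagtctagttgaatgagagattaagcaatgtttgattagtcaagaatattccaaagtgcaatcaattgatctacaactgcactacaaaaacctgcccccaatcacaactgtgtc
Cyp2c50 (chr19:40089529-40089678, plus strand): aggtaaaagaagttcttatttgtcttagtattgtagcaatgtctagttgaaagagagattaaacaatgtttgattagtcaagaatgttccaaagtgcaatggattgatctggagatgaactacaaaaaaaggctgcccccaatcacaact

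The Cyp2c70 window held each of the 3 letter sets. AGGTCA stood at -74 to -69 and CAAAGTCCA at -64 to -56 from the start, without overlap, and TATAAA was read on the other strand at -29 to -24. RefSeq windows were found for 8 of the 10 members, with 2 entries for Cyp2c39 and no entry for Cyp2c44 or Cyp2c54. Within 250 bases before the start, TATAAA was found in 4 of these 8 members (Cyp2c29, Cyp2c38, Cyp2c55 and Cyp2c70), AGGTCA in 3 (Cyp2c29 beyond the printed bases, 1 of the Cyp2c39 entries and Cyp2c70) and CAAAGTCCA in 2 (Cyp2c40 and Cyp2c70). Over all 32851 windows of the same length, TATAAA was held by 12.4%, AGGTCA by 14.0% and CAAAGTCCA by 0.384%. The letter sets were chosen after these windows had been seen, and a match is a description of the letters only. The RefSeq starts of Cyp2c29 (39287085) and Cyp2c70 (40187286) lie within the genes as GENCODE M21 draws them (39269405 to 39330713 for Cyp2c29), and the Cyp2c39 entry with AGGTCA lies outside that gene (39510862 to 39568529).

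Members differ widely in how alike they are, and this bears on how their reads can be told apart. Between coding sequences of the longest annotated form, identity ran from 60.1% (Cyp2c40 and Cyp2c44) to 96.1% (Cyp2c37 and Cyp2c50). Cyp2c37, Cyp2c50 and Cyp2c54 form a near-identical trio, with pairwise identities of 95.1% to 96.1%, and share the 89 coding bases printed next, bases 187 to 275 of each coding sequence, in exon 2. They are given once, under Cyp2c37, and read the same in Cyp2c50 (chr19:40090239-40090327, plus strand) and Cyp2c54 (chr19:40072423-40072511, minus strand). Capitals in the Cyp2c29 and Cyp2c70 lines mark the bases that differ from the trio, 15 and 13 of 89.
Cyp2c37 (chr19:39993743-39993831, plus strand): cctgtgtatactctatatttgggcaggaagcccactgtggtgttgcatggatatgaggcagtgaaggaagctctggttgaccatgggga
Cyp2c29 (chr19:39290747-39290835, plus strand): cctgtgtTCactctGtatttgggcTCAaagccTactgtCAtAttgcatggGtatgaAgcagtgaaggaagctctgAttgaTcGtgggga
Cyp2c70 (chr19:40183922-40184010, minus strand): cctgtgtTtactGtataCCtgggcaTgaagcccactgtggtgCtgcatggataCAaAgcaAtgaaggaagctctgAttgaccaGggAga

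Cyp2c70 was at most 69.8% identical to any other member (Cyp2c55), and none of the 1618 stretches of 100 bases in its transcript occurred in a transcript of another gene. The same held for Cyp2c29, Cyp2c38, Cyp2c39, Cyp2c44 and Cyp2c55, and these 6 genes had whole-number counts in all 12 libraries. In Cyp2c37, Cyp2c50 and Cyp2c54, 4.70%, 9.40% and 7.59% of such stretches were shared within the trio. In Cyp2c40, 44.1% were shared with Cyp2c67, Cyp2c68 or Cyp2c69, which are Cyp2c genes outside the set of 10. Those 4 members had fractional counts in 10 (Cyp2c37), 12 (Cyp2c50 and Cyp2c54) and 11 (Cyp2c40) of 12 libraries, so their reads were partly split between genes by the authors' counting and their single levels are uncertain.

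**Figure D1:**
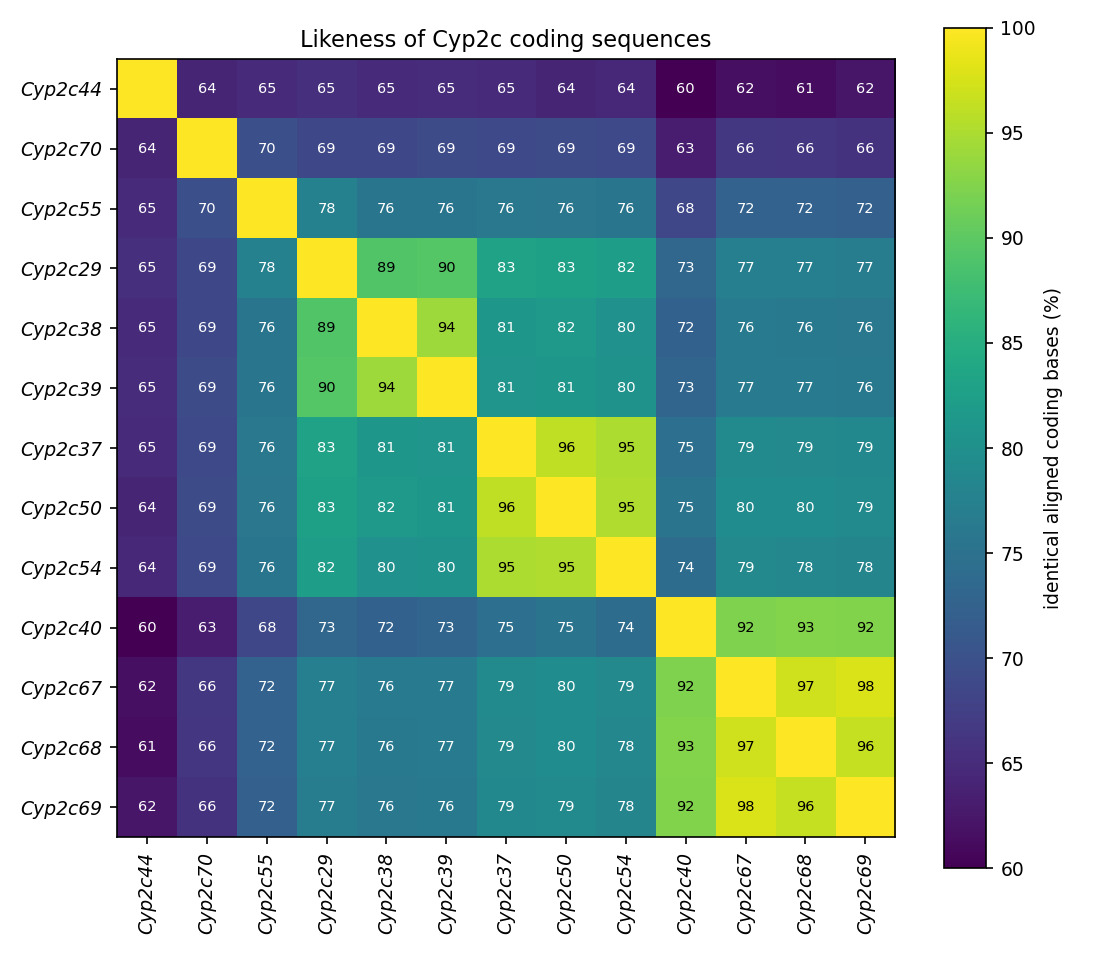
Percent of identical aligned bases between the coding sequences of the Cyp2c genes, the 10 members and the close relatives Cyp2c67, Cyp2c68 and Cyp2c69 of Cyp2c40 (colour from 60% to 100%, values rounded to whole percents). The Cyp2c37, Cyp2c50 and Cyp2c54 block and the Cyp2c40 block stand out, and Cyp2c44 and Cyp2c70 are unlike all other rows.

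The libraries held 15485508 to 23668379 estimated counts each, so that 1 count was worth 0.0423 to 0.0646 CPM (counts relative to the library's total) and 3 counts, taken as the floor, 0.127 to 0.194 CPM. The summed level of the 11 hepatocyte markers in the files was higher in every library with OA (41760 to 43030 CPM in ConOA and 43030 to 44950 in BBROA) than in any without (36300 to 37670 in Con and 36600 to 38200 in BBR), as was the level of Cyp2c70. The same order held for the 10 markers left without Alb (9841 to 10950 CPM against 7735 to 9218). Among them, Apob was at a mean of 2467 CPM in Con and 3158 in ConOA, and Apoa1 at 1025 and 1890. Cps1 of the urea cycle was at a mean of 17.88 CPM in Con, 177.5 in ConOA, 9.695 in BBR and 192.8 in BBROA. Hnf4a, Fgb, Cyp2e1 and Serpina1c were lower in ConOA than in Con. Endothelial markers summed to 55.3 to 70.1 CPM and stellate cell markers to 42.3 to 56.4 CPM. In 2 more lists a single gene set the sum. The 10 Kupffer cell markers summed to 141.4 to 183.4 CPM in BBR and to 102.6 to 118.2 CPM in the other groups. Without Cd68 the other 9 summed to 27.2 to 35.3 CPM in BBR, 29.7 to 35.9 in Con, 29.5 to 39.3 in ConOA and 35.2 to 44.3 in BBROA. Of these 9, Marco, Adgre1 and Csf1r had higher means in ConOA than in Con, and Clec4f, Cd5l, C1qa, C1qb, C1qc and Vsig4 lower means. The 6 cholangiocyte markers summed to 591.6 to 719.9 CPM in Con, 242.8 to 272.6 in ConOA, 390.2 to 422.4 in BBR and 198.8 to 240.5 in BBROA. Without Spp1 the other 5 went the other way, from 37.5 to 43.6 CPM in Con to 48.4 to 69.2 CPM in the other groups, with Sox9 at a mean of 32.3 CPM in Con and 42.6 to 48.8 elsewhere, and the defining markers Krt7 and Cftr did not pass the floor in any library. Their part in the Cyp2c values was not tested. In bulk libraries, fewer cells of a type and less RNA per cell cannot be told apart.

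Levels of different genes were compared as deposited FPKM (fragments scaled for transcript length and library size). In Con, Cyp2c29 and Cyp2c50 were at the top with 36.9 ± 2.31 and 34.1 ± 1.5 FPKM (SD, n = 3), and their libraries overlapped. Cyp2c44 followed at 24.2 ± 0.783 FPKM, and Cyp2c54 (14.4 ± 1.57), Cyp2c70 (13.5 ± 0.980) and Cyp2c37 (11.5 ± 0.843) came next, of which only Cyp2c54 and Cyp2c70 overlapped. Cyp2c40 was at 3.12 ± 0.515 FPKM, and Cyp2c38, Cyp2c55 and Cyp2c39 were all under 0.5 FPKM in every library. With OA the order changed in a single respect: Cyp2c70 went from rank 5 in Con to rank 1 in ConOA, above the libraries of Cyp2c29, and from rank 6 in BBR to rank 1 in BBROA, where its libraries overlapped with those of Cyp2c29. The ranks of the remaining members relative to each other were the same in all 4 groups.

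**Figure D2:**
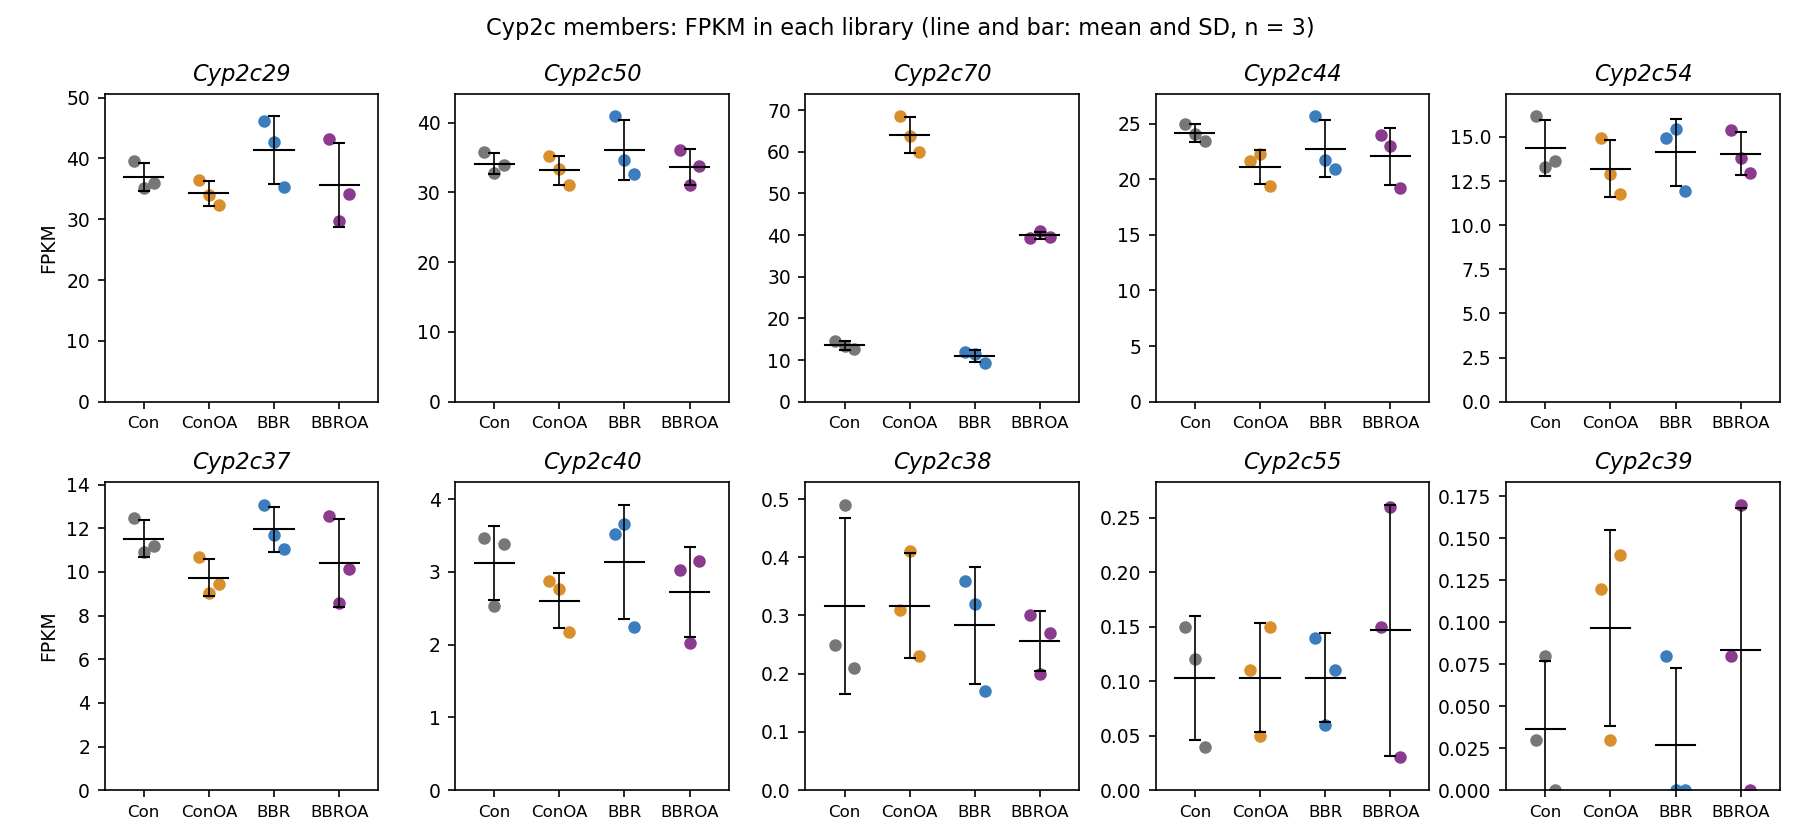
FPKM of each member (one panel per gene, linear axis from 0) in the 3 libraries of Con, ConOA, BBR and BBROA, with points for libraries and a line and bar for mean and SD. Cyp2c70 lies between 59.95 and 68.49 FPKM in ConOA and between 12.65 and 14.57 in Con, whereas the groups lie close together in the other panels.

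Cyp2c70, the bile acid hydroxylase, was read at 14.57, 13.27 and 12.65 FPKM in Con, at 68.49, 63.8 and 59.95 in ConOA, at 11.84, 11.55 and 9.19 in BBR and at 39.31, 40.92 and 39.52 in BBROA. No library of any group overlapped with one of another group, so the order ConOA, BBROA, Con, BBR held in every library. On 293 to 2088 counts per library, the level was 22.9 ± 1.42 CPM in Con, 111.1 ± 6.91 in ConOA, 18.5 ± 2.44 in BBR and 69.1 ± 2.0 in BBROA (SD, n = 3).

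With OA, Cyp2c70 rose by a log2 fold change of 2.29 (SE 0.065, 95% interval 2.15 to 2.43) in ConOA vs Con, with an adjusted p of 7.24e-12 in edgeR's quasi-likelihood test. It was 1 of 8 members tested that was called (adjusted p under 0.05) in a comparison where 42.8% of all 12418 genes tested were called and 21.3% were called higher. Its rise was the 69th largest change by size and ranked 4 by p. Under BBR, the rise in BBROA vs BBR was 1.89 (SE 0.076, 95% interval 1.73 to 2.06, edgeR adjusted p = 4.12e-10), again the only call among 8 members, against 38.9% of all genes called and 20.1% called higher. These 2 comparisons have no library in common, but whether the replicate numbers pair samples across groups was not settled.

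BBR moved Cyp2c70 the other way. In BBR vs Con the log2 fold change was -0.29 (SE 0.090, 95% interval -0.48 to -0.10, edgeR adjusted p = 0.0235), with a larger change in 24.4% of all genes, and 1 of 8 members was called where the background was 27.7% of genes called and 14.5% called lower. This call was lost without Con replicate 1 (-0.24, adjusted p = 0.0974) and without BBR replicate 3 (-0.19, adjusted p = 0.13), the library with the lowest Cyp2c70 level, and it missed the threshold in limma on log2 FPKM (-0.32, adjusted p = 0.0532). In BBROA vs ConOA the log2 fold change was -0.69 (SE 0.055, 95% interval -0.80 to -0.57, edgeR adjusted p = 5.29e-06), 1 of 8 members called where only 4.59% of all genes were called and 2.63% called lower, and the gene ranked 10 by p among 12278. It was called in 13 of 13 alternative fits of that comparison, between -0.72 and -0.64.

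The drop with BBR was larger in the presence of OA. The difference between the log2 fold changes (BBROA vs ConOA minus BBR vs Con, fitted on 12 libraries) was -0.38 (SE 0.107, 95% interval -0.61 to -0.16, edgeR adjusted p = 0.0234), and Cyp2c70 was the only call among 8 members, where 12.2% of 12742 genes were called and 5.31% were called lower. It was called in 12 of 18 alternative fits. The call was lost without Con replicate 2 (-0.37), Con replicate 3 (-0.34), BBR replicate 1 (-0.31), BBR replicate 2 (-0.34) or ConOA replicate 1 (-0.34), and in limma on log2 FPKM (-0.36), with adjusted p between 0.0501 and 0.089, and the sign was the same in all 18.

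**Figure D3:**
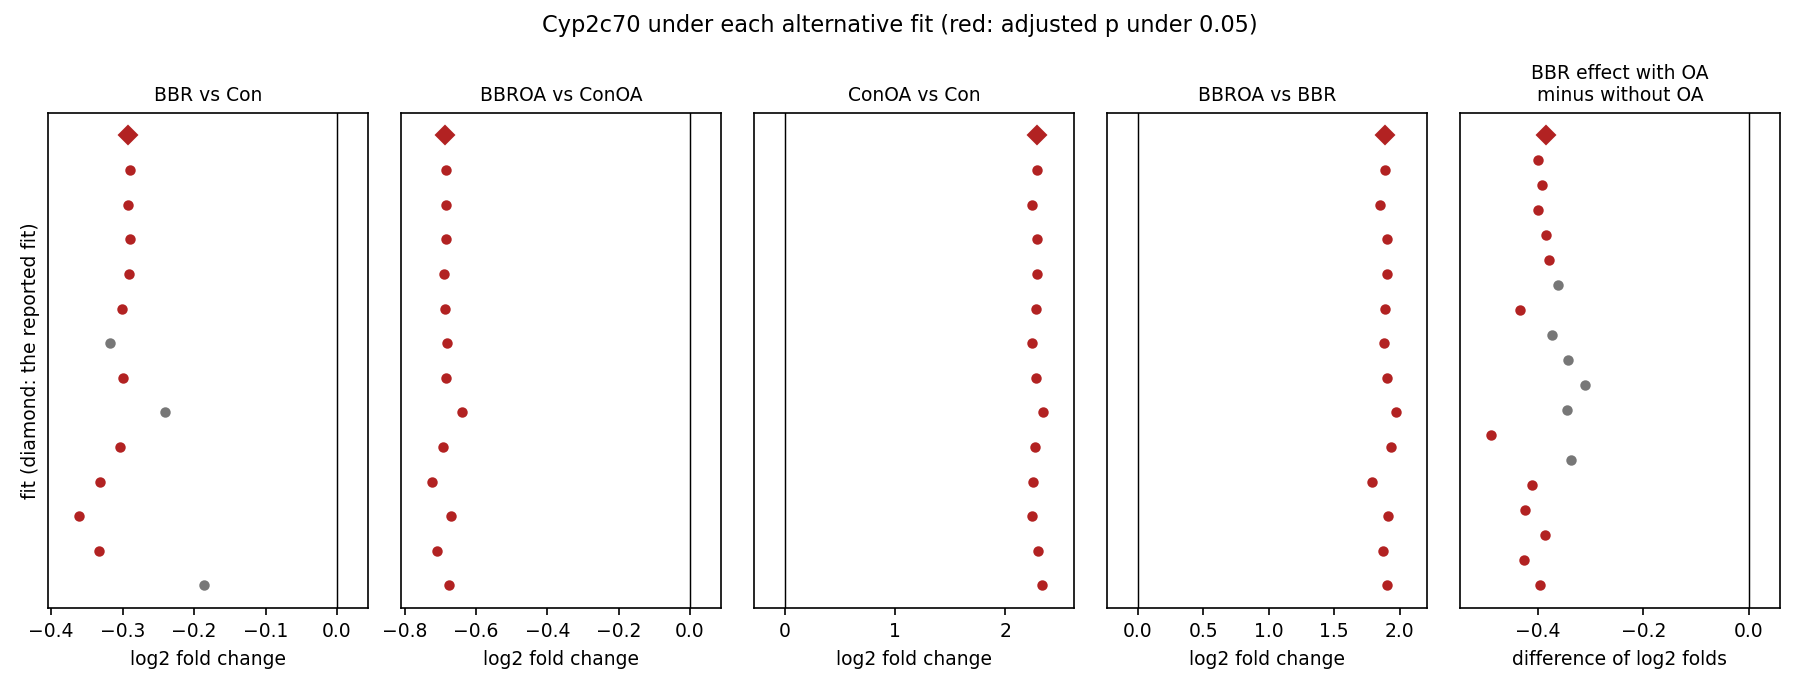
Log2 fold change of Cyp2c70 (horizontal axis, linear) in each of the 4 comparisons and for the difference of the BBR effects, in the reported fit (diamond) and every alternative fit (circles), red where the adjusted p was under 0.05. The OA rises and the BBROA vs ConOA fall are red throughout, while 3 circles in BBR vs Con and 6 circles for the difference are grey.

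The other members differed little between groups. In BBR vs Con the 7 other members tested lay between -0.13 (Cyp2c38) and 0.19 (Cyp2c29), and the median over all 8 was 0.004, against -0.0009 over all genes. In BBROA vs ConOA they lay between -0.31 and 0.096, in ConOA vs Con between -0.25 and 0.057, and in BBROA vs BBR between -0.20 and 0.012. Cyp2c70 was the only member whose libraries did not overlap in CPM in BBR vs Con (41.5% of all genes did not overlap), in BBROA vs ConOA (23.9%) and in BBROA vs BBR (49.6%), and in ConOA vs Con (52.2%) it was joined by Cyp2c44.

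**Figure D4:**
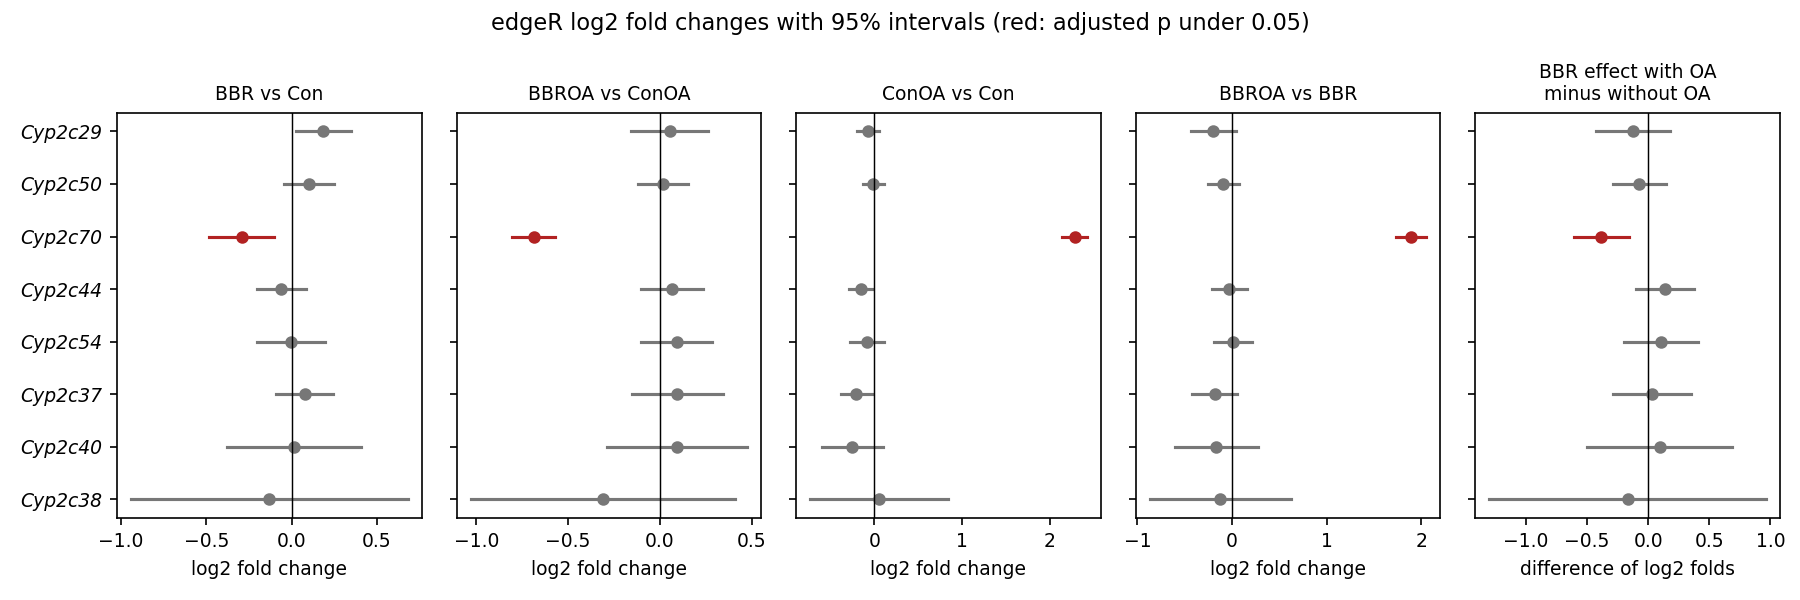
edgeR log2 fold change (point) and 95% interval (line) of the 8 members tested, in the 4 comparisons and for the difference of the BBR effects, with red for an adjusted p under 0.05 and separate horizontal scales. Cyp2c70 is the only red gene in each panel, and the Cyp2c38 intervals are the widest.

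Cyp2c29, an arachidonate epoxygenase and a main hepatic member, was read at 39.53, 35.22 and 35.95 FPKM in Con, 36.45, 34.06 and 32.31 in ConOA, 46.16, 42.66 and 35.26 in BBR, and 43.13, 29.68 and 34.11 in BBROA. The BBR libraries were higher on average but overlapped with Con through BBR replicate 3, and the log2 fold change of 0.19 (SE 0.076, 95% interval 0.02 to 0.35) had an edgeR adjusted p of 0.0826. Without that library it was 0.29 and called (adjusted p = 0.00358), and with no filter on low counts it was called as well (adjusted p = 0.028), but without BBR replicate 1 it was 0.0995 (adjusted p = 0.353). In BBROA the 3 libraries differed more than in any other group, and the comparison with BBR gave -0.20 (SE 0.110, adjusted p = 0.174), with -0.36 and a call without BBROA replicate 1 (adjusted p = 0.00767), -0.30 without BBR replicate 3 (adjusted p = 0.0522), -0.11 without BBR replicate 1 (adjusted p = 0.507) and -0.0838 without BBROA replicate 2 (adjusted p = 0.588). The replicate block gave -0.20 and a call there (edgeR adjusted p = 0.0233).

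Cyp2c44, an epoxygenase of arachidonic acid, was read at 24.97, 24.08 and 23.41 FPKM in Con, 21.66, 22.29 and 19.4 in ConOA, 25.66, 21.71 and 20.9 in BBR, and 23.95, 23.01 and 19.19 in BBROA. Each ConOA library was below each Con library, with a log2 fold change of -0.16 (SE 0.061, 95% interval -0.29 to -0.03) and an edgeR adjusted p of 0.0504, just short of a call. It was called under upper quartile scaling (-0.20, adjusted p = 0.0138), in limma on log2 FPKM (-0.20, adjusted p = 0.0408) and without ConOA replicate 2 (-0.19, adjusted p = 0.0483), and it was -0.10 without ConOA replicate 3 (adjusted p = 0.189). Upper quartile scaling and limma also moved the median over all genes in ConOA vs Con, from -0.006 to -0.052 and -0.04. Neither BBR comparison moved Cyp2c44 beyond its spread (-0.06 in BBR vs Con, adjusted p = 0.563, and 0.07 in BBROA vs ConOA, adjusted p = 0.719, by edgeR).

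The trio of Cyp2c37, Cyp2c50 and Cyp2c54, all known to oxidise arachidonic acid, was not called in the reported fit of any comparison. Cyp2c50 was read at 35.74, 32.76 and 33.93 FPKM in Con, 35.16, 33.38 and 31.01 in ConOA, 40.92, 34.67 and 32.61 in BBR, and 36.16, 31.1 and 33.76 in BBROA, with all 4 groups overlapping. Its interval was narrow, from -0.13 to 0.11 in ConOA vs Con and from -0.05 to 0.25 in BBR vs Con on the log2 scale. Cyp2c54 ranged from 11.78 to 16.17 FPKM over the 12 libraries, with the groups overlapping. Cyp2c37 was read at 12.48, 10.9 and 11.18 FPKM in Con, 10.7, 9.05 and 9.46 in ConOA, 13.07, 11.71 and 11.05 in BBR, and 12.55, 8.57 and 10.11 in BBROA. Its Con and ConOA libraries were apart in FPKM and touched in CPM (lowest Con library 19.6, highest ConOA library 19.63), and the log2 fold change was -0.21 in ConOA vs Con (SE 0.083, 95% interval -0.38 to -0.03, edgeR adjusted p = 0.0603), called under upper quartile scaling (-0.25, adjusted p = 0.0243) and without ConOA replicate 1 (-0.27, adjusted p = 0.0269). Upper quartile scaling also moved the median over all genes in ConOA vs Con, from -0.006 to -0.052. Cyp2c37 was called in that comparison with the replicate number as a block too (-0.21, edgeR adjusted p = 0.0153). It was also called in BBROA vs BBR without BBROA replicate 1 (-0.34, adjusted p = 0.015), against -0.18 (adjusted p = 0.214) with it, -0.11 without BBR replicate 1 (adjusted p = 0.525) and -0.061 without BBROA replicate 2 (adjusted p = 0.696). Since the reads are split, the 3 rows were also summed: the sum was 105.1 ± 5.94 CPM in Con, 100.3 ± 7.44 in ConOA, 109.7 ± 11.9 in BBR and 103.8 ± 9.03 in BBROA (SD, n = 3), and the groups overlapped in all 4 comparisons.

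Cyp2c40, whose product is known to hydroxylate arachidonic acid, was read at 3.46, 2.53 and 3.38 FPKM in Con, 2.87, 2.77 and 2.18 in ConOA, 3.52, 3.66 and 2.24 in BBR, and 3.02, 2.02 and 3.15 in BBROA. Taken alone it overlapped in all comparisons, and its difference in BBR vs Con was 0.01 with a 95% interval of -0.38 to 0.41, too wide to show a change of the size seen in Cyp2c70. Summed with Cyp2c67, Cyp2c68 and Cyp2c69, with which it shares stretches of sequence, the level was 60.5 ± 4.08 CPM in Con, 43.8 ± 2.59 in ConOA, 46.9 ± 3.61 in BBR and 37.9 ± 2.31 in BBROA (SD, n = 3). These sums did not overlap in any of the 4 comparisons (log2 ratios of the means -0.47 in ConOA vs Con, -0.37 in BBR vs Con, -0.31 in BBROA vs BBR and -0.21 in BBROA vs ConOA). Lack of overlap was common among single genes, in the same order 52.2%, 41.5%, 49.6% and 23.9% of all genes tested. The sums, like that of the trio, were formed after the data had been seen and were not tested.

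Most of that block came from Cyp2c67 and Cyp2c68, at 15.7 ± 0.886 and 15.8 ± 1.60 FPKM in Con. Cyp2c68 fell with BBR (-0.56, SE 0.086, edgeR adjusted p = 0.000138), with OA (-0.69, SE 0.103, adjusted p = 9.49e-05) and with OA under BBR (-0.45, SE 0.102, adjusted p = 0.00319). Cyp2c67 fell in the same 3 comparisons, with log2 fold changes of -0.25, -0.28 and -0.23. Its calls were lost in BBR vs Con without Con replicate 2 (adjusted p = 0.0759) or BBR replicate 3 (0.0763), in ConOA vs Con without Con replicate 2 (0.0607), and in BBROA vs BBR in DESeq2 (0.0633) and without BBR replicate 1 (0.0661) or BBROA replicate 3 (0.0616). Cyp2c69, at 3.01 to 29.6 counts, fell in ConOA vs Con (-1.26, SE 0.394, adjusted p = 0.0181), but was not called without Con replicate 2 (-1.11, adjusted p = 0.0801) or ConOA replicate 2 (-0.86, adjusted p = 0.0802). None of the 3 was called in BBROA vs ConOA or for the difference of the BBR effects. Of the remaining Cyp2c rows, Cyp2c66 had 0 counts in all 12 libraries, Cyp2c65 at most 2, and an assembled locus named Cyp2c11 at most 9.

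The 3 lowest members were near the limit of detection. Cyp2c38, at 9 to 29 counts, was read at 0.25, 0.49 and 0.21 FPKM in Con, 0.31, 0.41 and 0.23 in ConOA, 0.36, 0.32 and 0.17 in BBR, and 0.3, 0.2 and 0.27 in BBROA, and the groups overlapped throughout. It passed the filter, but its interval in BBR vs Con ran from -0.94 to 0.68 on the log2 scale, so that a change of the size seen in Cyp2c70 with BBR was not detectable at this depth. Cyp2c55, a hydroxylase of arachidonic acid, had 1 to 10 counts and was at or under 3 counts in 4 libraries. Cyp2c39, an enzyme known to act on retinoic acid, had 0 to 6 counts and was at 0 in 4 libraries. Neither passed the filter on low counts, so 8 of the 10 members were tested in each comparison.

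The makeup of the set of 10 members differed between the groups. Cyp2c67 and Cyp2c68, at means of 15.7 and 15.8 FPKM in Con and 12.6 and 9.56 in ConOA, are not part of this set. The FPKM of the 10 members summed to 138.2 ± 8.04 in Con, 178.7 ± 12.1 in ConOA, 140.7 ± 16.6 in BBR and 159.0 ± 13.1 in BBROA (SD, n = 3). Cyp2c70 made up 9.77% ± 0.310 of this sum in Con, 35.9% ± 0.148 in ConOA, 7.71% ± 0.377 in BBR and 25.2% ± 2.42 in BBROA. Its share was 35.69% to 35.98% across the ConOA libraries, although their sums ran from 166.6 to 190.8 FPKM. Without Cyp2c70 the sums were 124.7 ± 7.13, 114.7 ± 7.81, 129.8 ± 15.3 and 119.0 ± 13.8 FPKM in Con, ConOA, BBR and BBROA. Cyp2c29 took 26.7% ± 0.155 of the sum in Con and 19.2% ± 0.184 in ConOA, at mean levels of 36.9 and 34.3 FPKM.

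**Figure D5:**
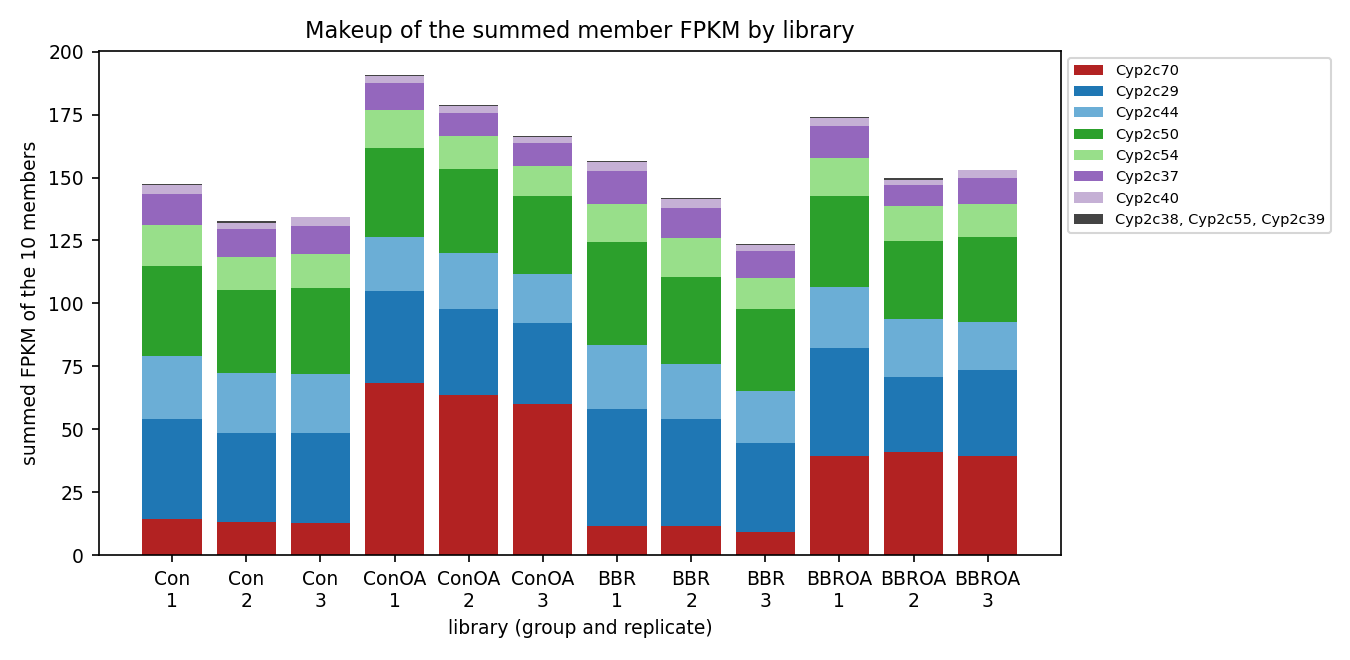
Summed FPKM of the 10 members in each of the 12 libraries (bars, linear axis from 0), divided by gene. The Cyp2c70 part (red, at the base) takes 9.77% of the bar on average in Con and 35.9% in ConOA, while the rest of the bar is of similar height in all groups.

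Within groups, the shared-read members and Cyp2c29 tended to be high or low in the same library. Of Cyp2c29, Cyp2c37, Cyp2c40, Cyp2c50 and Cyp2c54, a group chosen after their values were seen, all 5 were highest in Con replicate 1 and lowest in Con replicate 2, all 5 were highest in ConOA replicate 1, and all 5 were lowest in BBR replicate 3. In BBROA, 4 of the 5 were highest in replicate 1 and 4 were lowest in replicate 2. Cyp2c70 was also highest in replicate 1 of Con, ConOA and BBR, but in BBROA it was highest in replicate 2.

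Among the genes most like each of the 4 top members in their profile (Pearson r of log2(CPM + 0.5) over 12 libraries, out of 12734 genes), Cyp2c70 had the closest: the RNA-binding protein gene Tardbp (r = 0.991), the endocytic recycling gene Ehd1 (r = 0.99) and the vesicle tethering gene Trappc4 (r = 0.989). All 3 were higher with OA, although far less than Cyp2c70, with log2 fold changes in ConOA vs Con of 0.35, 0.39 and 0.57. For Cyp2c29 they were Rbm22 (r = 0.9), Eif2ak2 (r = 0.884) and the apolipoprotein gene Apoc1 (r = 0.883), and for Cyp2c50 the fatty acid-binding protein gene Fabp1 (r = 0.847), Apoc1 (r = 0.832) and Zc3hav1 (r = 0.831). For Cyp2c44 they were Mmrn2 (r = 0.844), Recql (r = 0.841) and Slc30a4 (r = 0.833). The 12 points share their libraries and fall into 4 groups, so these values are a description, and the highest of so many are high in any data.

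The receptors and regulators of P450 genes were called in 52.4% of those tested in BBR vs Con (27.7% of all genes), 66.7% in ConOA vs Con (42.8%), 40% in BBROA vs BBR (38.9%), 5% in BBROA vs ConOA (4.59%) and 47.6% for the difference of the BBR effects (12.2%). This list and those that follow were drawn up with earlier results of these data known. Of 21 tested, 0 were called higher and 11 lower in BBR vs Con, with a median log2 fold change of -0.30, and 3 were higher and 11 lower in ConOA vs Con. In BBROA vs ConOA 1 of 20 was higher and 0 lower, and in BBROA vs BBR 5 were higher and 3 lower. The difference of the BBR effects was called above 0 for 10 of 21 and below 0 for none, opposite in sign to that of Cyp2c70, with 0.73 for PXR and 1.04 for FXR (Nr1h4, edgeR adjusted p = 0.000999 and 0.000339). The call of Hnf4a (0.24, edgeR adjusted p = 0.0311) was lost in limma on log2 FPKM (adjusted p = 0.268) and without some single libraries (0.0519 to 0.135). That of Nr0b2 (1.48, edgeR adjusted p = 0.0472) was lost with no filter (0.070) and with any single library left out (0.0523 to 0.167). PXR (Nr1i2) was at 15.1 ± 0.409 CPM in Con and 9.15 ± 0.313 in BBR (log2 fold change -0.71, edgeR adjusted p = 1.44e-05), and it fell with OA as well (-0.75, adjusted p = 1.67e-05). Hnf4a fell by 0.26 in BBR vs Con (adjusted p = 0.000928). CAR (Nr1i3) was low, at 0.17 to 0.46 FPKM, and was not called in the 3 comparisons where it was tested. It did not pass the filter in BBROA vs ConOA, where its means were 0.571 and 0.396 CPM and its libraries did not overlap. FXR, the bile acid receptor, fell by 0.94 in BBR vs Con (adjusted p = 1.82e-06) and by 0.61 in ConOA vs Con (adjusted p = 0.000784), and its target SHP (Nr0b2), a repressor, fell by 2.12 and 1.25 (adjusted p = 7.56e-05 and 0.00108). In BBROA vs ConOA, PXR (0.009), Hnf4a (-0.03), FXR (0.09) and SHP (-0.65) were not called (edgeR adjusted p 0.344 to 0.977). FXR rose by 0.43 in BBROA vs BBR (edgeR adjusted p = 0.00514). For the lipid sensor Ppara, the rise with OA was 0.62 (adjusted p = 0.000871).

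Other bile acid genes were called in 63.6% of those tested in BBR vs Con (27.7% of all genes), 27.3% in ConOA vs Con (42.8%), 45.5% in BBROA vs BBR (38.9%) and 27.3% for the difference of the BBR effects (12.2%). Of 11 tested, 1 was higher and 6 lower in BBR vs Con, 1 higher and 2 lower in ConOA vs Con, and 4 higher and 1 lower in BBROA vs BBR. In BBROA vs ConOA 0 of 11 were called in either direction. Only 4.59% of all genes were called there, so a count of 0 does not set the list apart. The difference of the BBR effects was called above 0 for 3 and below 0 for none. Baat, which conjugates bile acids to taurine, fell from 3.89 ± 0.209 to 0.655 ± 0.292 CPM in BBR vs Con (log2 fold change -2.50, edgeR adjusted p = 2.7e-06) and rose by 2.42 in BBROA vs BBR (adjusted p = 7.09e-06). In BBROA vs ConOA its log2 fold change was -0.33 (edgeR adjusted p = 0.425). Abcb11, the bile salt export pump, rose with OA from 14.1 ± 1.53 to 32.8 ± 6.03 CPM (1.22, adjusted p = 1.95e-06) and by 1.47 in BBROA vs BBR (adjusted p = 6.23e-08), and it fell by 0.50 in BBR vs Con (adjusted p = 0.00509).

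Of the other P450 genes that handle foreign compounds, 4 were higher and 4 lower of 20 tested in BBR vs Con, 5 higher and 7 lower of 19 in ConOA vs Con, 4 higher and 6 lower of 19 in BBROA vs BBR, and 0 higher and 1 lower of 19 in BBROA vs ConOA, and the difference of the BBR effects was called for 1 of 20, below 0. These calls made up 40% of those tested in BBR vs Con (27.7% of all genes), 63.2% in ConOA vs Con (42.8%), 52.6% in BBROA vs BBR (38.9%), 5.26% in BBROA vs ConOA (4.59%) and 5% for the difference (12.2%). Cyp2b10, a classical CAR target, was at 0.859 ± 0.136 CPM in Con and 12.3 ± 2.24 in ConOA, and at 0.683 ± 0.369 in BBR and 11.3 ± 1.52 in BBROA, log2 fold changes with OA of 3.83 and 4.10 (edgeR adjusted p = 3.52e-09 and 1.33e-08). Cyp3a11, a classical PXR target, rose by 0.34 in BBR vs Con (adjusted p = 0.000399). Cyp2s1 rose by 2.30 with BBR (adjusted p = 0.00105) from 0.299 ± 0.180 CPM, near the floor. Cyp1a1 fell by 1.12 (adjusted p = 0.00982) and Cyp2j9 by 1.16 (adjusted p = 0.0201) in ConOA vs Con, both under 2 CPM. The Cyp2j9 call was lost in DESeq2 (adjusted p = 0.0861) and without Con replicate 3 (0.0720), ConOA replicate 1 (0.0739) or ConOA replicate 3 (0.0673).

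For the enzymes that serve P450s, 14 genes of electron transfer and haem supply were tested. In BBR vs Con 2 were higher and 5 lower, in ConOA vs Con 3 and 7, in BBROA vs BBR 5 and 4 (3 higher under upper quartile scaling), in BBROA vs ConOA 0 and 0, and for the difference of the BBR effects 3 and 2. These were 50.0% of the list in BBR vs Con (27.7% of all genes), 71.4% in ConOA vs Con (42.8%) and 64.3% in BBROA vs BBR (38.9%). The share was 0% in BBROA vs ConOA (4.59%) and 35.7% for the difference (12.2%). Por rose with OA, by 0.42 (edgeR adjusted p = 1.18e-05) without and 0.25 (adjusted p = 0.00172) with BBR. Hmox1, which degrades haem, rose with BBR from 208.0 ± 31.0 to 407.3 ± 47.8 CPM (0.98, adjusted p = 9.92e-07), rose by 0.48 in ConOA vs Con (not called in DESeq2, adjusted p = 0.0574) and fell by 0.68 in BBROA vs BBR (adjusted p = 0.00596 and 3.45e-05), and its difference of the BBR effects was -1.15 (adjusted p = 0.000394).

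Genes that release or handle arachidonic acid, the shared substrate of many members, were called higher and lower in 4 and 2 of 19 in BBR vs Con, 1 and 0 of 19 in BBROA vs ConOA, 1 and 7 of 18 in ConOA vs Con, 2 and 0 of 20 for the difference of the BBR effects, and 2 and 4 of 20 in BBROA vs BBR (9 lower under upper quartile scaling, which also moved the share of higher calls among all calls from 51.7% to 40.8% there and from 49.8% to 39.2% in ConOA vs Con). The shares called were near those of all genes, with 31.6% in BBR vs Con (27.7% of all genes), 44.4% in ConOA vs Con (42.8%), 30.0% in BBROA vs BBR (38.9%), 5.26% in BBROA vs ConOA (4.59%) and 10% for the difference (12.2%). Cyp4a10, a fatty acid hydroxylase and PPAR alpha target, rose with BBR in both comparisons, by 1.03 in BBR vs Con (edgeR adjusted p = 0.000582) and 0.82 in BBROA vs ConOA (adjusted p = 0.0012). Cyp4f15 fell with OA by 1.01 (adjusted p = 0.00516) and by 0.81 under BBR (adjusted p = 0.00674), and the cyclooxygenase genes Ptgs1 and Ptgs2 had log2 fold changes of -1.58 and 1.12 with OA (adjusted p = 0.0136 and 0.0349), both from levels under 2 CPM. The Ptgs1 call was lost without ConOA replicate 1 (-1.15, adjusted p = 0.0621), and that of Ptgs2 in DESeq2 and without Con replicate 1, Con replicate 2, ConOA replicate 2 or ConOA replicate 3 (0.81 to 1.17, adjusted p 0.0601 to 0.145). Cyp4a31 rose by 1.44 in BBROA vs BBR (adjusted p = 0.0114; 1.14 and 0.0512 without BBR replicate 2), and the prostaglandin E synthase gene Ptges fell by 1.0 there (adjusted p = 0.000321).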

How the data were processed

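Per the labels, RNA was extracted with Trizol, enriched with oligo(dT) beads, reverse transcribed from random primers and run on an Illumina sequencer. For each library the authors deposited 1 table holding, per feature, its estimated count and its FPKM, and the submitters' processing notes name the build mm10. The aligner, counting program, annotation and use of strand are not given in the sources used here. Groups came from the labels. Estimated counts were rounded, filtered (filterByExpr, minimum count 10), scaled by TMM and tested over all genes with edgeR (quasi-likelihood, two-sided, Benjamini-Hochberg adjustment, called at adjusted p under 0.05) on the 6 libraries compared, or on all 12 for the difference of the BBR effects. Comparisons that share a group (such as BBR vs Con and ConOA vs Con) are not independent. CPM are TMM-scaled over 12 libraries. Replicates within a group differed by more than counting noise. The fits were checked on simulated counts with known changes. Alternatives were RLE and upper quartile scaling, DESeq2, no filter, the replicate block, limma on log2(FPKM + 0.1), a fit on all 12 libraries, and leaving out each library. Levels at or under 3 counts cover counting error only. Coding sequences were aligned with Biopython 1.88 on GENCODE M21. The members and gene lists were chosen with earlier results of these data known. Besides the members, the text names the other Cyp2c rows, regulators set beforehand, listed genes called with a change of at least 1 (log2, at most 3 each way per list), and the 3 most alike genes of the 4 top members. Tools were R 4.3.3, edgeR 4.0.16, limma 3.58.1 and DESeq2 1.42.0.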

Additional observations from a re-analysis of the deposited data

Results flagged for a closer look

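The effect of BBR on Cyp2c70 differed with and without OA: the log2 fold change was -0.29 in BBR vs Con and -0.69 in BBROA vs ConOA, and the interaction term was -0.384 (SE 0.107, edgeR adjusted p = 0.0234). All 3 BBROA libraries were below all 3 ConOA libraries, and all 3 BBR libraries were below all 3 Con libraries. The term was between -0.49 and -0.31 in the 18 alternative fits and was called in 12 of them.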

How the results depend on the processing

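Cyp2c70 kept its sign in every alternative fit and was called in 13 of 13 in BBROA vs ConOA, ConOA vs Con and BBROA vs BBR, in 10 of 13 in BBR vs Con and in 12 of 18 for the difference of the BBR effects. The number of members called (1 in each reported fit) was 2 in BBR vs Con with no filter and 0 in limma on log2 FPKM, 3 in ConOA vs Con under upper quartile scaling and 2 in limma on log2 FPKM, and 0 for the difference in limma on log2 FPKM. Those fits called 3589 and 2607 of all genes in BBR vs Con, 5293 and 4388 in ConOA vs Con, and 1095 for the difference. Leaving out 1 library gave 0 to 1 members in BBR vs Con, 1 to 2 in ConOA vs Con, 1 to 3 in BBROA vs BBR and 0 to 1 for the difference. Over all genes these fits called 2598 to 3240, 4270 to 5273, 4012 to 4378 and 1027 to 1679, in the same order. In BBR vs Con without BBR replicate 3 the 1 member called was Cyp2c29, not Cyp2c70. The cause was not tested. With the replicate block, 2 members were called in BBR vs Con (Cyp2c29 and Cyp2c70), 3 in ConOA vs Con (with Cyp2c37 and Cyp2c44) and 2 in BBROA vs BBR (with Cyp2c29). The block also raised the calls over all genes, in the same order from 3484 to 4153 of 12555, from 5311 to 6628 of 12418 and from 4826 to 5281 of 12416. In BBROA vs ConOA the calls over all genes rose from 563 to 1333. Libraries of the same number correlated in their deviations by 0.023 to 0.155, and libraries of different number by -0.147 to 0.057. The reported fits took the replicates as unpaired, and whether the numbers pair the samples was not settled. Every library correlated best with its own number in 3 of the comparisons, and in BBROA vs ConOA all did but BBROA replicate 2 (0.039, against 0.057 with ConOA replicate 3).

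Of 558 alternative log2 values of members, 491 kept sign and side of the threshold, 9 lost the call, 13 gained it and 45 changed sign, none of the last called. Of 679 alternative values of called genes outside the set, 616 kept the call and 63 lost it. Cyp2c40 turned in BBR vs Con to -0.00571 with the replicate block and -0.0109 in limma on log2 FPKM, and Cyp2c54 in BBROA vs BBR to -0.030 under upper quartile scaling and -0.00296 in limma. With 1 library left out in turn, these uncalled members had values on both sides of 0. In BBR vs Con the values ran over -0.37 to 0.33 for Cyp2c38, -0.13 to 0.22 for Cyp2c40, -0.000233 to 0.17 for Cyp2c50 and -0.067 to 0.10 for Cyp2c54. In BBROA vs ConOA the values ran over -0.10 to 0.17 for Cyp2c29, -0.0621 to 0.22 for Cyp2c37, -0.0084 to 0.27 for Cyp2c40 and -0.0308 to 0.0697 for Cyp2c50. In ConOA vs Con the values ran over -0.18 to 0.51 for Cyp2c38, -0.0501 to 0.0331 for Cyp2c50 and -0.18 to 0.00011 for Cyp2c54. In BBROA vs BBR the values ran over -0.38 to 0.12 for Cyp2c38, -0.37 to 0.0125 for Cyp2c40, -0.0879 to 0.0696 for Cyp2c44, -0.16 to 0.0154 for Cyp2c50 and -0.0928 to 0.0761 for Cyp2c54. For the difference of the BBR effects the values ran over -0.15 to 0.13 for Cyp2c37, -0.63 to 0.0731 for Cyp2c38, -0.11 to 0.25 for Cyp2c40, -0.14 to 0.0327 for Cyp2c50 and -0.000264 to 0.20 for Cyp2c54. With the rows of Cyp2c40 and its relatives merged, the log2 ratio in BBR vs Con was -0.37, against 0.01 for Cyp2c40 alone. In Con the merged rows were at 60.5 CPM and Cyp2c40 at 5.51, so the merged ratio mostly reflects Cyp2c67 and Cyp2c68.

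Depth limits Cyp2c38, Cyp2c39 and Cyp2c55, at 29, 6 and 10 counts or less. Levels of Cyp2c37, Cyp2c40, Cyp2c50 and Cyp2c54, and of Cyp2c67, Cyp2c68 and Cyp2c69 outside the set, depend on how the authors' counting split shared reads, which was not tested. RNA levels do not measure enzyme or activity.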
